A study of Mus musculus with 18 samples.

Results

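The muscle myosin light chains are described here through 7 probes for 6 genes, Myl1, Myl2, Myl3, Myl4, Mylpf and Mylk2, taken as every non-control probe whose deposited gene name is one of these symbols. The array holds 55681 probe names under 35527 gene or region names, and Myl1 is the only one of the 6 genes with more than 1 probe. All 7 probes gave a signal well above background and below saturation on all 18 arrays, so none was lost to a filter and all 7 were tested in every comparison. Single-colour arrays measured RNA from pools of 5 to 10 dissociated myofibers of wild-type CD1 female mice aged 3 months, lysed and spun into a nuclear pellet and a cytoplasmic supernatant. There were 6 groups of 3 arrays: nuclei and cytoplasm of the extensor digitorum longus (EDL), of the soleus and of the tibialis anterior (TA). No group was treated. The same-numbered EDL and soleus samples, nuclear and cytoplasmic, came from the same pair of mice. Each TA nuclear sample and TA cytoplasm 3 came from a single mouse, while TA cytoplasm 1 and 2 came from pairs that share a mouse. TA nuclei 1 and 2 each share a mouse with the same-numbered cytoplasm, TA nuclei 3 and TA cytoplasm 3 share none, and TA cytoplasm 1 and 2 and TA nuclei 3 also share mice with EDL and soleus, so the TA samples are not all independent of the others. The question put to the myosin light chains is how their RNA levels differ between the muscles and between the nuclear and cytoplasmic fractions.

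Each myosin motor head carries an essential and a regulatory light chain on the lever arm of its heavy chain. Fast fibers use Myl1 as the essential and Mylpf as the regulatory chain, while slow fibers use Myl3 and Myl2, which are also the chains of the ventricle. Myl4 is the essential chain of the atrium and of embryonic muscle, and Mylk2 is the calmodulin-dependent kinase of skeletal muscle that phosphorylates the regulatory chain. In mice the EDL and the TA are predominantly fast muscles and the soleus holds many slow fibers.

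The probes are 60-base oligonucleotides, and 30 bases of each are printed 5′ to 3′ to show what was hybridised. Capitals mark AATAAA, the hexamer of the poly(A) signal, searched in the probe strand as printed. It occurs in the probes of Myl3 and Mylk2 and in 10.1% of all 55681 probes on the array. The positions are those of the array design on mouse build mm9. No exon or UTR label comes with them.
Myl1, 1f transcript (A_51_P416858, chr1:66970948-66971007, minus strand, bases 1 to 30): ttataagccttgagttttcatgacaaacat
Myl1, 3f transcript (A_52_P273120, chr1:66976853-66981100, minus strand, bases 1 to 30): agattgccgacttcaaggaggcatttctcc
Mylpf (A_55_P2170381, chr7:134355191-134355250, plus strand, bases 1 to 30): tataaccccagaagaactgctccaagcaga
Myl3 (A_55_P2152547, chr9:110672238-110672297, plus strand, bases 29 to 58): tgtggccttatgAATAAAtggtttccttcc
Myl2 (A_66_P104309, chr5:122556732-122556791, plus strand, bases 1 to 30): ataagaatttggtccacatcattacccacg
Myl4 (A_55_P2107045, chr11:104448441-104448500, plus strand, bases 1 to 30): gttactgttacggagtattggactcacatg
Mylk2 (A_55_P2047043, chr2:152748725-152748784, plus strand, bases 2 to 31): ttgtgccttgtaAATAAAaacacaggttgg
The 3f probe of Myl1 covers 4248 genomic bases with 60 bases of sequence, so it crosses at least 1 exon junction, whereas the other 6 lie on 60 contiguous bases. The array design assigns the Myl1 probes to different transcripts of the gene, and whether either also hybridises to the other transcript was not tested. The names 1f and 3f give that assignment only, and neither probe is shown to read 1 transcript alone. On the minus strand the 1f probe lies on the 3′ side of the 3f probe, so its position does not make it particular to the 1f transcript. No probe under another gene name shares a run of 30 bases with any of the 7.

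RefSeq promoter sequences of build GRCm38.p6 were held for Myl1, Myl2, Myl3, Myl4 and Mylpf. The 250 bases before the start are printed for one slow and one fast chain, Myl3 because it had the widest difference between soleus and EDL among the 7 probes, and Mylpf as the fast regulatory chain. Capitals mark E-boxes (CANNTG) and the CArG box, both searched on both strands.
Myl3 (chr9:110763428-110763677, plus strand): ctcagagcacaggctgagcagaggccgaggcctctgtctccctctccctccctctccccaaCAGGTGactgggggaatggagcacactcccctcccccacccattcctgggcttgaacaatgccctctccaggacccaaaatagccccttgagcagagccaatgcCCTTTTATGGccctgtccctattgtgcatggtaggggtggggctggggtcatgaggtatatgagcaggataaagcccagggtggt
Mylpf (chr7:127211358-127211607, plus strand): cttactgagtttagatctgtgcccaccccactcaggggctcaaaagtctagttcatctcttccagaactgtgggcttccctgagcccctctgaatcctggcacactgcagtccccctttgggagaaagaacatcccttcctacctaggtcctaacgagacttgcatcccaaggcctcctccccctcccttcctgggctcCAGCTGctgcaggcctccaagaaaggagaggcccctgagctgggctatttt
Each window holds 1 E-box, as 66.2% of the 32851 promoters in the table hold at least 1. The Myl3 window also holds 1 CArG box, which occurs in 1.47% of them, while the windows of Myl1, Myl2, Myl4 and Mylpf hold 0. Neither printed window holds the MEF2 element, found in 2.92%. These matches are letters in a window and not sites of binding.

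The labels were checked against markers chosen for the cells a fiber preparation could hold. All 14 myofiber genes were well above background on every array. All 5 listed RNAs that stay in the nucleus passed as higher in the nuclear fraction of EDL and of soleus, and 4 of the 5 in TA. Genes of cells around the fiber did not all move one way between the fractions. In EDL, soleus and TA, 5, 5 and 6 of 6 fibroblast genes, 6, 2 and 7 of 8 endothelial genes and 4, 4 and 5 of 6 Schwann cell genes were higher in nuclei, where 20.0%, 18.7% and 19.2% of all probes were higher and 26.5%, 21.7% and 33.5% lower. Of 6 macrophage genes 1, 1 and 2 were lower in nuclei and 0 higher, and of 4, 3 and 4 satellite cell genes tested 1 was lower in each muscle and 0 higher. Of 3 erythroid genes tested, 3 were lower in soleus, 2 were higher in TA and 0 passed in EDL. Smooth muscle genes went both ways, with 2 higher (Myh11 and Smtn) and 2 lower in each muscle. Between 58.6% and 71.2% of the spots of an array were well above background, and the lowest was soleus cytoplasm 2. The EDL and soleus cytoplasm arrays lay on one slide with TA cytoplasm 1, the EDL and soleus nuclear arrays on another, and the TA nuclear arrays on a slide with TA cytoplasm 2. Fraction cannot be told apart from slide within EDL or within soleus, while EDL and soleus of one fraction always shared a slide. Levels are given as quantile-normalized log2 signal, and a difference of 1 is a doubling. Because all arrays were brought to one distribution, a difference between fractions compares relative levels within each fraction, not amounts of RNA. A nuclear excess below means a higher normalized level in nuclei. It does not mean that more of the RNA lay in nuclei than in cytoplasm.

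Among the 6 genes the slow chains Myl3 and Myl2 separated the muscles, with soleus above EDL and EDL above TA in both fractions. Myl3, the slow essential chain, was 14.5-fold higher in soleus than in EDL nuclei and 19.1-fold higher in cytoplasm, and Myl2, the slow regulatory chain, 6.50-fold and 9.41-fold higher. Mylk2 was lower in soleus than in EDL in both fractions. The fast chains Myl1 and Mylpf had lower means in soleus on all 3 of their probes, but none of these differences passed the test. In a bulk sample, fewer fibers of a type and less RNA in each cannot be told apart. Of the 7 probes, 3 passed in nuclei and 3 in cytoplasm, while 1.56% and 1.42% of all probes tested passed. In each fraction 2 were higher in soleus and 1 lower, beside 0.978% and 0.579% of all probes in nuclei and 0.853% and 0.570% in cytoplasm. The samples of the 2 muscles did not overlap for all 7 probes in nuclei and for 6 in cytoplasm, as for 39.7% and 14.8% of all probes. The median difference of the 7 probes was -0.43 in nuclei and -0.58 in cytoplasm, beside 0.02 and -0.08 over all probes.

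In soleus Myl3 read 15.31, 15.37 and 15.39 in the nuclear samples 1 to 3 and 14.78, 15.33 and 14.79 in the cytoplasmic ones. In EDL it read 11.55, 11.41 and 11.54 in nuclei and 11.31, 10.87 and 9.96 in cytoplasm. The soleus samples lay above every EDL sample, and EDL cytoplasm 3 was the lowest of its group. In TA the level was 8.72, 8.78 and 8.72 in nuclei and 8.71, 8.36 and 8.31 in cytoplasm, below every EDL sample. Soleus exceeded EDL by 3.85 ± 0.27 (log2, SE) in nuclei and by 4.26 ± 0.27 in cytoplasm (limma adjusted p = 1.41e-06 and 9.51e-07). TA was lower than EDL by a log2 difference of -2.77 in nuclei and -2.25 in cytoplasm (limma adjusted p = 3.18e-05 and 0.000382). Within the slide that TA cytoplasm 1 shared with the EDL cytoplasm arrays, that single TA array differed from the EDL mean by -2.01, with no test.

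Myl2 followed the same order over a wider range. Its soleus levels were 14.92, 14.83 and 14.90 in nuclei and 14.83, 15.12 and 14.63 in cytoplasm. In EDL they were 12.16, 12.33 and 12.06 in nuclei and 12.27, 12.08 and 10.53 in cytoplasm, where sample 3 again stood lowest. In TA they were 6.45, 6.49 and 6.13 in nuclei and 7.24, 6.72 and 6.87 in cytoplasm. No sample of one muscle overlapped another muscle in either fraction. Soleus exceeded EDL by 2.70 ± 0.34 in nuclei and 3.23 ± 0.34 in cytoplasm (limma adjusted p = 0.000391 and 9.98e-05).

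Against soleus, TA differed in Myl2 by -8.53 ± 0.34 in nuclei and -7.91 ± 0.34 in cytoplasm, and against EDL by -5.83 and -4.68 (limma adjusted p from 1.91e-09 to 6.80e-06 over the 4 comparisons). Myl3 differed between TA and soleus by -6.62 in nuclei and -6.51 in cytoplasm (limma adjusted p = 1.91e-09 and 3.84e-09). These are differences of 369-fold and 98.4-fold in nuclei. The TA signals of Myl2 ran from 55.1 to 121 units of processed signal, dim although well above background. Within the shared slide TA cytoplasm 1 lay -4.39 from the EDL mean and -7.62 from the soleus mean in Myl2. For every other TA array the muscle and the slide cannot be told apart.

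**Figure D1:**
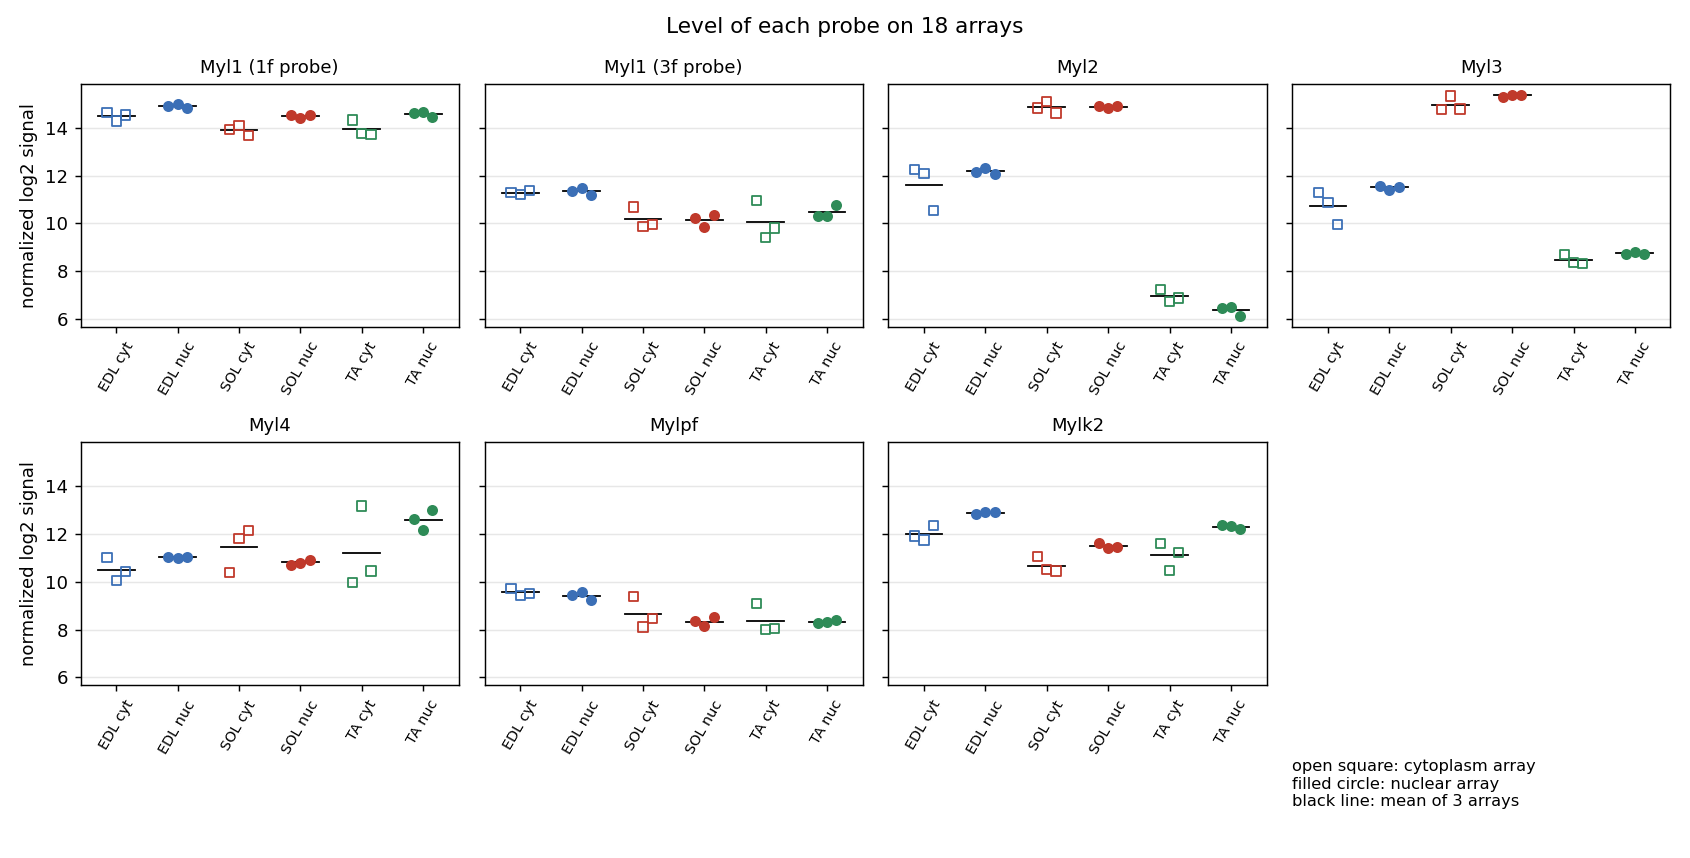
Normalized log2 signal (vertical axis) of the 7 probes in the 6 groups (horizontal axis), 1 point for each of 18 arrays, with open squares for cytoplasm, filled circles for nuclei and a black line at the mean of 3. Myl2 and Myl3 fall from soleus to EDL to TA with no overlap between muscles, whereas Myl1 stays between 13.68 and 15.003 on its 1f probe, and the cytoplasm points scatter more than the nuclear ones.

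The fast essential chain Myl1 was measured in all 3 muscles at levels that, after quantile normalization, differed little on its 1f probe. This probe lay between percentiles 98.9 and 99.7 of the arrays. In EDL this probe read 14.92, 15.003 and 14.83 in nuclei and 14.64, 14.29 and 14.54 in cytoplasm. In soleus it read 14.53, 14.40 and 14.53 in nuclei and 13.93, 14.12 and 13.68 in cytoplasm. In TA it read 14.63, 14.67 and 14.48 in nuclei and 14.33, 13.76 and 13.72 in cytoplasm. EDL was highest of the muscles in both fractions, and TA cytoplasm 1 alone overlapped EDL. The difference of soleus from EDL was -0.43 in nuclei (95% interval -0.84 to -0.03, limma adjusted p = 0.454) and -0.58 in cytoplasm (-0.99 to -0.18, limma adjusted p = 0.164). The cytoplasmic difference passed in 1 of 27 alternatives, without scaling, at -0.88 (limma adjusted p = 0.0445), and the nuclear one in 0. TA and soleus differed by 0.11 in nuclei (-0.29 to 0.51) and 0.03 in cytoplasm (-0.37 to 0.43), differences within the spread between samples.

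The 3f probe of Myl1 gave larger differences of the same direction. Its EDL levels were 11.37, 11.49 and 11.20 in nuclei and 11.29, 11.19 and 11.36 in cytoplasm. The soleus levels were 10.22, 9.85 and 10.35 in nuclei and 10.68, 9.88 and 9.95 in cytoplasm, all below EDL. TA read 10.31, 10.32 and 10.75 in nuclei and 10.95, 9.42 and 9.80 in cytoplasm, also below EDL throughout. Against EDL, the soleus difference was -1.21 in nuclei and -1.11 in cytoplasm (limma adjusted p = 0.0860 and 0.112), and both passed without TA cytoplasm 1 (limma adjusted p = 0.00881 and 0.0177). The TA difference from EDL was -0.89 in nuclei (limma adjusted p = 0.0679) and -1.22 in cytoplasm, where it passed the test (limma adjusted p = 0.0240). With TA cytoplasm 2 left out the cytoplasmic value was -0.91 (limma adjusted p = 0.140), and within the shared slide TA cytoplasm 1 differed from EDL by -0.33.

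Mylpf, the fast regulatory chain, was read by a dim probe, between percentiles 75.5 and 89 of the arrays (190 to 995 units of processed signal). In EDL nuclei its mean of 9.42 lay below the 11.50 of the slow chain Myl3. How fully this probe reads the Mylpf RNA was not tested. Mylpf was highest in EDL, where it read 9.45, 9.59 and 9.23 in nuclei and 9.73, 9.42 and 9.52 in cytoplasm. In soleus it read 8.35, 8.15 and 8.52 in nuclei and 9.40, 8.11 and 8.45 in cytoplasm. In TA it read 8.27, 8.30 and 8.41 in nuclei and 9.08, 7.99 and 8.03 in cytoplasm. All soleus and TA samples lay below all EDL samples of the same fraction, the nearest being soleus cytoplasm 1 and TA cytoplasm 1. Mylpf was 2.13-fold lower in TA than in EDL nuclei and 2.28-fold lower in cytoplasm (limma adjusted p = 0.0277 and 0.0240). The corresponding soleus differences of -1.08 and -0.91 did not pass (limma adjusted p = 0.126 and 0.193). Soleus and TA differed by -0.01 in nuclei with a 95% interval of -0.67 to 0.65. The nuclear call between TA and EDL was lost when any 1 of the 6 arrays compared was left out (limma adjusted p from 0.0536 to 0.0914). On the shared slide TA cytoplasm 1 was -0.48 from the EDL mean, and with the slide as a random block both TA values of Mylpf missed the threshold (limma adjusted p = 0.606 in nuclei and 0.186 in cytoplasm).

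Myl4, the atrial and embryonic essential chain, did not follow fiber type and passed no test between muscles. Its TA levels were 12.64, 12.16 and 13.01 in nuclei and 9.98, 13.18 and 10.46 in cytoplasm. In EDL it read 11.06, 11.02 and 11.03 in nuclei and 11.01, 10.05 and 10.44 in cytoplasm. In soleus it read 10.72, 10.79 and 10.93 in nuclei and 10.39, 11.83 and 12.15 in cytoplasm. TA nuclei thus lay above all other nuclear samples, and TA cytoplasm 2 was the highest of all 18 arrays. In cytoplasm the differences between muscles were 0.96, 0.71 and -0.25 (soleus against EDL, TA against EDL, TA against soleus), each with an SE of 0.62. On the shared slide TA cytoplasm 1 was -0.52 from the EDL mean and -1.48 from the soleus mean. The TA difference in nuclei was 1.57 ± 0.62 against EDL and 1.79 ± 0.62 against soleus (limma adjusted p = 0.0940 and 0.0561). Without TA cytoplasm 2, whose group had the widest SD of any member (1.72 with it), the same nuclear differences passed (limma adjusted p = 0.0132 and 0.00524).

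Some markers of other cells, but not whole lists, were higher in the same TA samples. The summed level of 7 smooth muscle genes (log2 of the summed normalized signals) ranged from 14.04 to 14.59 in TA nuclei and from 12.02 to 14.24 in TA cytoplasm, beside 11.89 to 12.64 over all EDL and soleus arrays. Of these genes 5 were well above background on each TA array, while Lmod1 and Myocd, the latter a defining cofactor of smooth muscle, were so on none. The summed level of 6 satellite cell genes ranged from 12.22 to 12.49 in TA nuclei and from 11.80 to 13.05 in TA cytoplasm, beside 9.70 to 11.91 elsewhere, and Calcr was not well above background on any array. Single genes carried these sums. In TA against EDL nuclei 2 of 6 smooth muscle genes tested were higher, Acta2 by 3.54 and Tagln by 0.75 on the log2 scale (limma adjusted p = 0.0109 and 0.0108), while Myh11 differed by -0.42 and Smtn by 0.11 without passing. Of 4 satellite cell genes tested 2 were higher, Cdh15 by 5.59 (limma adjusted p = 0.00205) and Pax7 (limma adjusted p = 0.0129), which was not well above background on any EDL nuclear array, while Myod1 differed by 0.34 and Ncam1 by -0.27 without passing. Cdh15 alone had a mean level of 12.06 in TA nuclei and Acta2 of 13.84, close to the sums of their lists. TA cytoplasm 2, where Myl4 was highest, had the highest smooth muscle and satellite sums of its group at 14.24 and 13.05. TA cytoplasm 3 had a smooth muscle sum of 13.73 with Myl4 at 10.46. The part of these cells in the Myl4 levels was not tested.

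Mylk2, the light chain kinase of skeletal muscle, was highest in EDL. It read 12.84, 12.95 and 12.93 in EDL nuclei, 12.37, 12.33 and 12.20 in TA nuclei and 11.61, 11.44 and 11.48 in soleus nuclei, with no overlap between the muscles. In cytoplasm it read 11.93, 11.76 and 12.36 in EDL, 11.61, 10.49 and 11.25 in TA and 11.06, 10.53 and 10.46 in soleus, where TA and soleus overlapped. Mylk2 was 2.63-fold lower in soleus than in EDL nuclei and 2.53-fold lower in cytoplasm (limma adjusted p = 0.00841 and 0.0155). The cytoplasmic call was lost without EDL cytoplasm 3 or soleus cytoplasm 2 (limma adjusted p = 0.0645 and 0.0557). TA fell between the others: it was lower than EDL by a difference of -0.90 in cytoplasm (limma adjusted p = 0.0324) and higher than soleus by 0.79 in nuclei (limma adjusted p = 0.0407). On the shared slide TA cytoplasm 1 was -0.40 from the EDL mean. With the slide as a random block both calls were lost, at -0.67 and 1.08 (limma adjusted p = 0.188 and 0.271). The TA differences of -0.61 from EDL in nuclei and 0.44 from soleus in cytoplasm did not pass (limma adjusted p = 0.110 and 0.208). The call of TA over soleus in nuclei was lost whenever 1 of the EDL, soleus or TA nuclear arrays was left out, and without scaling the difference was 0.23 (limma adjusted p = 0.458).

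Counted over the 7 probes, TA differed from EDL in 3 probes in nuclei and 5 in cytoplasm, all lower, where 17.4% and 12.4% of all tested probes passed. Of all probes, 7.59% and 5.12% were called higher and 9.81% and 7.33% lower in TA. TA and EDL samples did not overlap for all 7 probes in nuclei and for 5 in cytoplasm, as for 60.6% and 22.1% of all probes. The medians were -0.89 and -1.19 for the 7 probes, beside -0.11 and 0.10 for all probes. Leaving out TA cytoplasm 2 or 3, or EDL cytoplasm 1 or 3, reduced the 5 cytoplasmic calls to 2, which were Myl2 and Myl3. TA differed from soleus in 3 probes in nuclei (2 lower, 1 higher) and 2 in cytoplasm (both lower), beside 19.6% and 28.6% of all probes. By direction 7.75% of all probes were higher and 11.9% lower in nuclei, and 15.8% and 12.8% in cytoplasm. No overlap between TA and soleus was seen for 4 probes in nuclei and 2 in cytoplasm, as for 61.6% and 30.1% of all probes. The TA comparisons use the same EDL, soleus and TA arrays in turn, so these counts are not independent of each other.

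**Figure D2:**
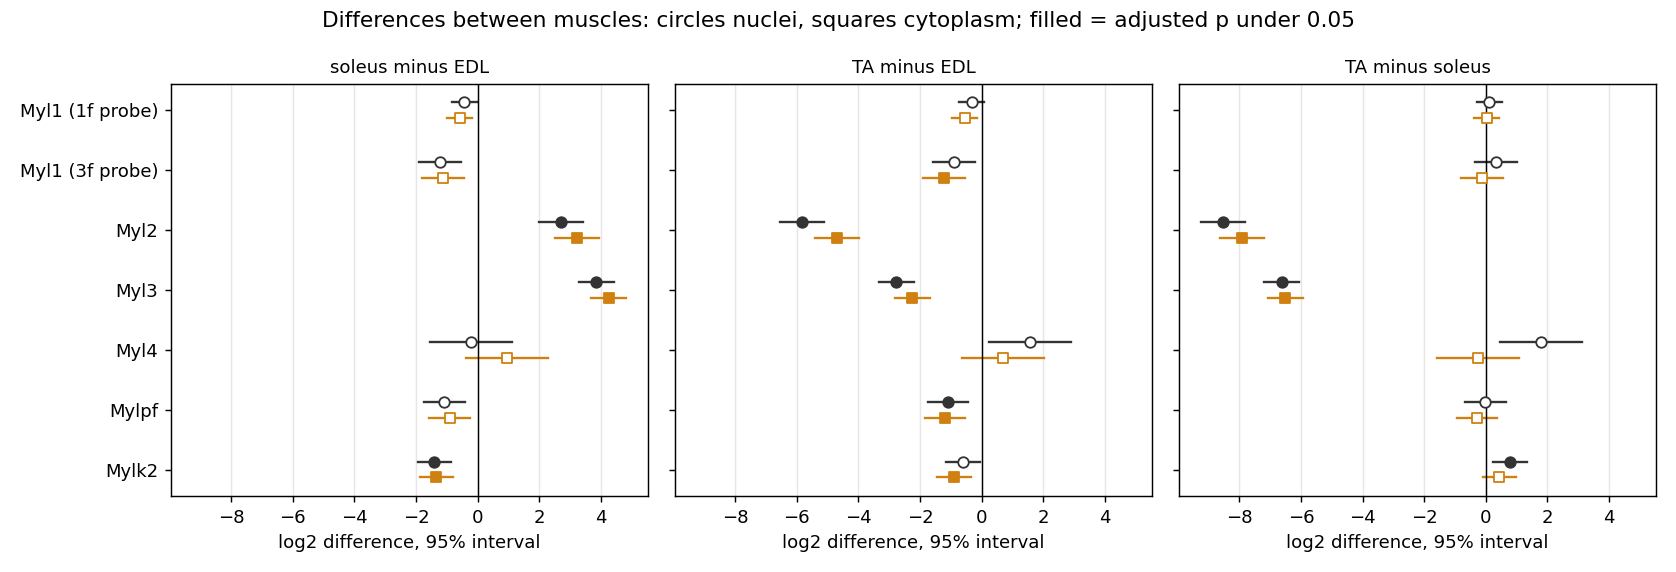
Log2 differences between muscles (horizontal axis, with 95% intervals of the limma fit) for the 7 probes (vertical axis), circles for nuclei and squares for cytoplasm, filled where the adjusted p is under 0.05. Myl2 and Myl3 lie far from 0 in all 3 panels, down to -8.53 for Myl2 in TA against soleus, while Myl1 and Mylpf lie between -1.22 and 0.32.

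Between the fractions Mylk2 was the only one of the 6 genes called higher in nuclei in all 3 muscles. Its normalized level in nuclei exceeded that in cytoplasm 1.85-fold in EDL, 1.78-fold in soleus and 2.27-fold in TA, with no overlap between the fractions of any muscle. The 1f probe of Myl1 was higher in nuclei in soleus and TA, and Myl3 in EDL. None of the 7 probes passed as lower in nuclei. In each muscle 2 of 7 probes passed, where 46.6% of all probes passed in EDL, 40.3% in soleus and 52.7% in TA. Called higher were 20.0%, 18.7% and 19.2% of all probes, and lower 26.5%, 21.7% and 33.5%. Genes outside the members shared the nuclear excess. Of the 14 myofiber genes 4, 4 and 7 were called higher in nuclei and 0 lower. Of 8 heavy chain genes 5, 3 and 4 were called higher and 0 lower. The fractions did not overlap for 4, 2 and 4 of the 7 probes, as for 67.1%, 56.8% and 60.5% of all probes. The medians of the 7 probes were 0.53, 0.03 and 0.41, beside -0.05, -0.01 and -0.22 over all probes.

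The nuclear excess of Mylk2 was 0.89 ± 0.25 (log2, SE) in EDL, 0.83 ± 0.25 in soleus and 1.18 ± 0.25 in TA (limma adjusted p = 0.00978, 0.0173 and 0.00124). The soleus call was lost without soleus cytoplasm 3 or soleus nuclei 1 (limma adjusted p = 0.0687 and 0.0575). For Myl1 the 1f probe differed by 0.57 ± 0.19 in soleus and 0.66 ± 0.19 in TA (limma adjusted p = 0.0251 and 0.00905), and by 0.43 in EDL without passing (limma adjusted p = 0.0780), although there too the 3 nuclear samples lay above the 3 cytoplasmic ones. The soleus call was lost without soleus cytoplasm 1 or 3 or soleus nuclei 1 or 3 (limma adjusted p = 0.0511, 0.103, 0.0725 and 0.0719). The 3f probe of the same gene differed by 0.07, -0.03 and 0.41 and passed nowhere. Myl3 differed by 0.79 ± 0.27 in EDL (limma adjusted p = 0.0242), and without EDL cytoplasm 3, the low sample, by 0.41 (limma adjusted p = 0.133). It also missed the threshold without EDL nuclei 1 or 3 (limma adjusted p = 0.0634 and 0.0621).

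Mylpf gave -0.14 in EDL, -0.31 in soleus and -0.04 in TA, with 95% intervals that reached from -0.98 to 0.63. Myl2 gave 0.56, 0.03 and -0.59, and in TA every nuclear sample lay below every cytoplasmic one (limma adjusted p = 0.156). Myl4 gave 0.53, -0.64 and 1.40, the last with a limma adjusted p of 0.0724, which became 0.000616 without TA cytoplasm 2. That array was the only TA cytoplasm array on the slide of the TA nuclei, and the TA nuclear mean of Myl4 lay -0.58 from it, the opposite sign. The cytoplasmic samples of the members varied more than the nuclear ones: the median SD over the probes and muscles was 0.342 in cytoplasm and 0.0922 in nuclei (n = 3 each).

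**Figure D3:**
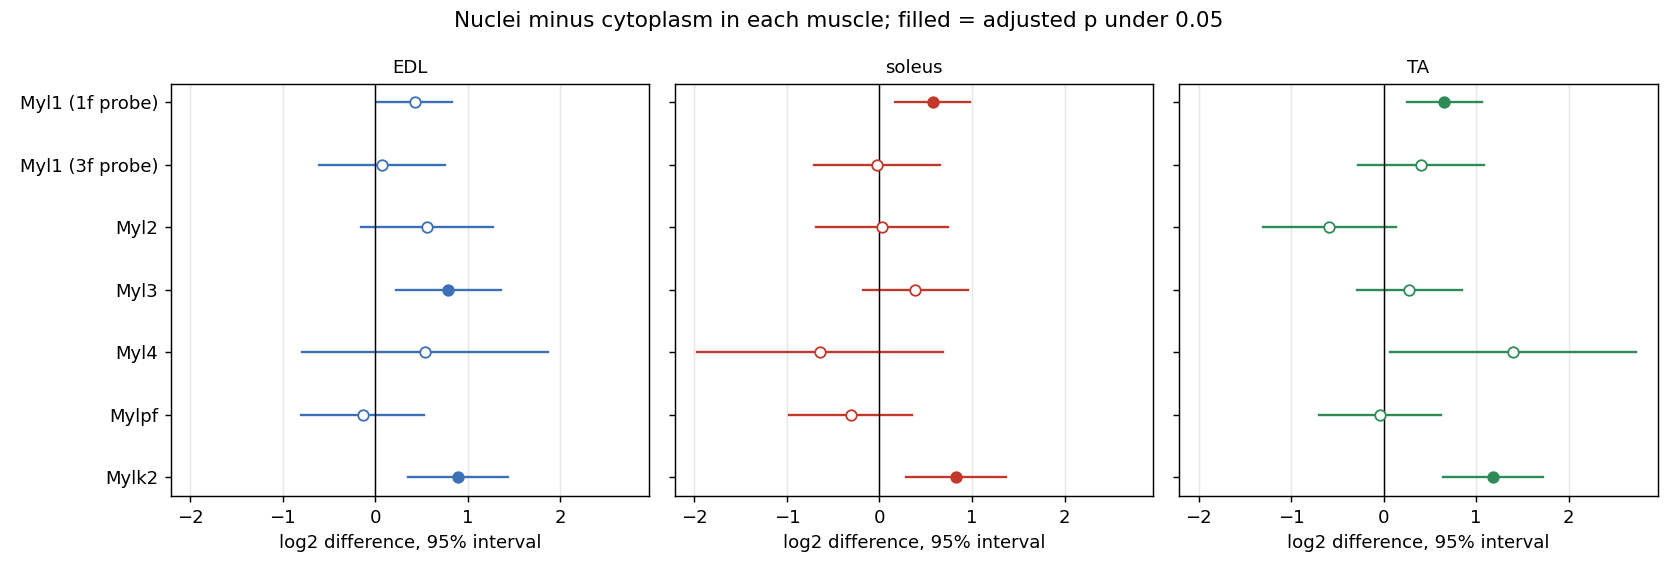
Nuclei minus cytoplasm on the log2 scale (horizontal axis, with 95% intervals) for the 7 probes (vertical axis) in EDL, soleus and TA, filled where the adjusted p is under 0.05. Mylk2 is filled in all 3 muscles, at 0.89, 0.83 and 1.18, the 1f probe of Myl1 in soleus and TA, and Myl3 in EDL.

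The scaling of the arrays moved several of these values. Scaling each array by its 75th percentile moved the median of all probes to -0.29, -0.26 and -0.45 in EDL, soleus and TA. Mylk2 then stayed higher in nuclei at 0.76, 0.74 and 1.33 (limma adjusted p = 0.0238, 0.0299 and 0.000552), as did Myl3 in EDL at 0.83 (limma adjusted p = 0.0202). The 1f probe of Myl1 changed sign in soleus, to -0.18 (limma adjusted p = 0.514), and in EDL, to -0.10, and had a value of 0.33 in TA (limma adjusted p = 0.199). Myl2 and Myl3 in soleus also changed sign, to -0.82 and -0.48, without passing under either scaling. With no scaling 5, 5 and 4 of the 7 probes were higher in nuclei, while the median of all probes moved to 0.35, 0.96 and -0.16. In soleus, the 3f probe of Myl1 and Mylpf then turned from -0.03 and -0.31 to 1.16 and 0.93. With the slide as a random block the calls in EDL and soleus were lost while the differences were larger. Mylk2 then differed by 1.12 ± 0.39 in EDL and 1.06 ± 0.39 in soleus (limma adjusted p = 0.0654 and 0.101), Myl3 in EDL by 0.91 ± 0.46 and the 1f probe of Myl1 in soleus by 0.76 ± 0.30 (limma adjusted p = 0.192 and 0.121). Both calls in TA remained. Within the 5 TA arrays scanned on the same day 3 of 7 probes passed, and on the slide that held both fractions Mylk2 exceeded TA cytoplasm 2 by 1.81 and the 1f probe of Myl1 by 0.84. On that slide Myl2 and Myl4 went the other way, at -0.37 and -0.58. The genes of other cells that differed between the fractions are counted above, and their part in these differences was not tested.

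**Figure D4:**
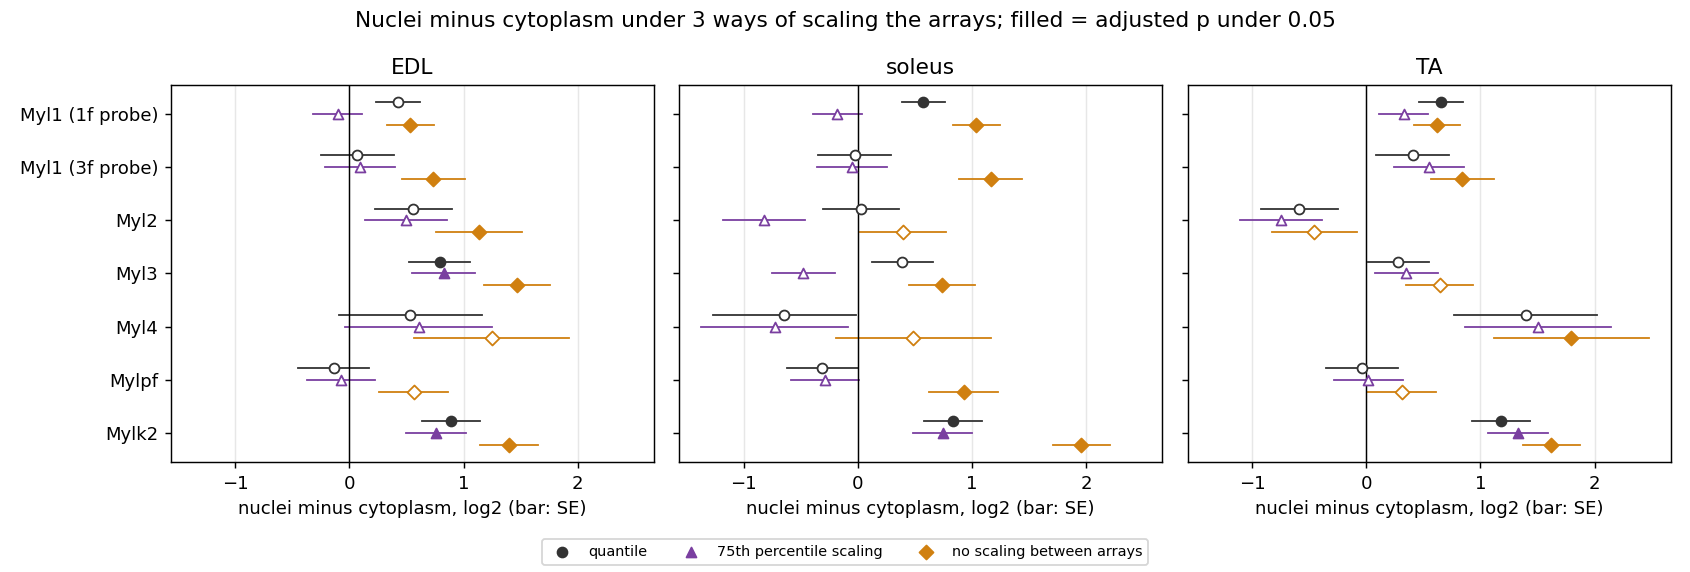
Nuclei minus cytoplasm on the log2 scale (horizontal axis, bars of 1 SE) for the 7 probes (vertical axis) after quantile normalization, after scaling by the 75th percentile and without scaling, filled where the adjusted p is under 0.05. Mylk2 is filled under all 3 in every muscle, whereas the 1f probe of Myl1 in soleus moves from 0.57 to -0.18 and 1.04.

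None of the 7 probes passed the test for a fraction difference that depends on the muscle, which 1.57% of all probes passed. The smallest values were those of Myl2 (unadjusted p = 0.0852, limma adjusted p = 0.375) and Myl4 (unadjusted p = 0.0999, limma adjusted p = 0.400), so no unadjusted p of this test was under 0.05. Taken pair by pair, the nuclei minus cytoplasm difference of Myl2 in TA was below that in EDL by -1.15 ± 0.48 (unadjusted p = 0.0291, limma adjusted p = 0.336). The difference of Myl4 in TA was above that in soleus by 2.04 ± 0.88 (unadjusted p = 0.0353, limma adjusted p = 0.204). In TA Myl2 was -0.59 and in soleus Myl4 was -0.64, so neither of these was an excess in nuclei. For Mylk2 the 3 pairwise differences ranged from -0.06 to 0.35, each with an SE of 0.36.

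Other myosin light chains, kinases and phosphatase subunits were taken from lists, with the brightest probe for each gene. Of 7 other light chain genes, 1 differed between soleus and EDL: Myl12a, a non-muscle regulatory chain, was 1.65 higher in nuclei and 1.62 higher in cytoplasm (limma adjusted p = 0.00188 and 0.00310). Against EDL nuclei 2 of the 6 tested were higher in TA, Myl12b by 1.39 and Myl6b, a second essential chain of slow muscle, by 4.43 with an SE of 1.31 (limma adjusted p = 0.0210 and 0.0316). Myl6b had mean levels of 9.90 and 9.04 in soleus nuclei and cytoplasm and of 5.37 and 4.50 in EDL, a difference of 4.54 and 4.53 that did not pass (limma adjusted p = 0.125 and 0.112), and in EDL cytoplasm it was well above background on 1 of 3 arrays. Myl6, the essential chain of non-muscle myosin, was 0.65 higher in nuclei in EDL and 0.90 in TA (limma adjusted p = 0.0113 and 0.00105). Myl10 had a nuclear excess of 2.30 in EDL (limma adjusted p = 0.000628) and one of 1.62 in soleus (limma adjusted p = 0.0073), and was well above background on 1 of 3 cytoplasmic arrays of each muscle. Myl9, the regulatory chain of smooth muscle, passed in TA alone with an excess of 1.07 (limma adjusted p = 0.0428). Myl7, the atrial regulatory chain, passed in the opposite direction in all 3 muscles (limma adjusted p = 0.0135, 0.0133 and 0.0107) and was not well above background on any nuclear array of EDL or TA.

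Of 10 kinase, calmodulin and phosphatase genes 0 passed between soleus and EDL in either fraction with limma, and 2 in nuclei and 3 in cytoplasm had an unadjusted p under 0.05. Mylk4 had soleus minus EDL differences of -2.34 in nuclei and -1.97 in cytoplasm (limma adjusted p = 0.102 and 0.165), the same sign as Mylk2. In nuclei against cytoplasm 4 were higher and 1 lower in EDL, 3 higher in soleus, and 6 higher and 1 lower in TA, where 20.0%, 18.7% and 19.2% of all probes were higher and 26.5%, 21.7% and 33.5% lower. Ppp1r12a, the targeting subunit of the myosin phosphatase, was higher in nuclei by 2.08 in EDL, 1.87 in soleus and 2.74 in TA. Mylk3, the cardiac kinase, was lower in nuclei by -0.83 in EDL and -0.89 in TA (limma adjusted p = 0.00191 and 0.000955).

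Of the 8 heavy chain genes 3 passed as higher and 1 as lower in soleus than in EDL nuclei, beside 0.978% and 0.579% of all probes. In cytoplasm 4 and 2 did, beside 0.853% and 0.570%. The slow chain Myh7 was higher in soleus by 3.52 in nuclei and 4.73 in cytoplasm, and the fast chain Myh4 lower by -3.92 and -5.03 (limma adjusted p = 0.000411, 3.29e-05, 0.0113 and 0.00231). The fast chains did not all fall. Myh2 had means of 14.19 in soleus and 13.17 in EDL nuclei, and of 13.75 and 12.51 in cytoplasm. Myh1 had means of 13.49 and 14.31 in nuclei, and of 11.88 and 13.34 in cytoplasm. In TA against EDL nuclei Myh7 differed by -2.68 (limma adjusted p = 0.00167) and Myh4 by -0.05 (limma adjusted p = 0.970).

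The members correlated in pairs over the 18 arrays. Pearson's r was 0.95 between Myl2 and Myl3, 0.93 between the 3f probe of Myl1 and Mylpf, and 0.90 between the 1f probe of Myl1 and Mylk2. The 2 Myl1 probes had an r of 0.70. These values describe 18 arrays that fall into 6 groups and share slides, and carry no test. Among 33935 probes measured on all arrays, those most like Myl3 were for Tpm3 (r = 0.99), the slow tropomyosin, and Fzd9 (r = 0.99). For Mylk2 they were Myoz3, Emid1 and Pfkm (r = 0.96 each), and for the 1f probe of Myl1 a predicted locus, Calm3 and Sh3bgr (r = 0.96 each). The probe most like Myl4 was for Tnnt2, cardiac troponin T (r = 0.92), followed by Cdkn1a (r = 0.85) and Gprc5c (r = 0.84). For Myl2 the named genes were Bola3 and Hsdl2 (r = 0.97 and 0.96), for Mylpf Ctsc (r = 0.93), and for the 3f probe of Myl1 Nepn and Sar1b (r = 0.96 and 0.94).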

How the data were processed

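The deposited scanner files hold spot intensities of 18 single-colour arrays, which the authors extracted with Feature Extraction 10.7.3.1; the processed intensity is background-subtracted, and no value is a count, so the number of arrays, not a read depth, limits the precision. The authors' table of processed values was not used for these 7 probes. From the files, log2 processed signals were set to missing where the spot was not positive and significant or was flagged as an outlier, control spots were dropped, quantile normalization was applied across arrays, and spots of 1 probe name were averaged (R 4.3.3). limma 3.58.1 was fitted to 6 group means over all 18 arrays (12 residual and 3.27 prior degrees of freedom). A probe was tested with at least 2 values in each group involved, and p-values were adjusted by Benjamini-Hochberg over all probes tested, with calls at 0.05. Every limma p printed is two-sided except the F test of the fraction difference by muscle. The methods name Significance Analysis of Microarrays, which was run as an alternative, because limma fits all 6 groups and comparisons together. Scripts were tested on simulated data.

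Same-numbered EDL and soleus samples come from the same mice, and numbers pair them by origin, which does not hold for TA. In the data, deviations of same-numbered samples from their group means correlated between -0.18 and 0.13 over 35528 probes (45 pairs, TA included). Both of these limits came from pairs with TA. Pairs within EDL and soleus, which share mice, correlated between -0.11 and 0.10. The p-values measure the spread between pools, estimated once for each probe over all 6 groups. A comparison of nuclear samples therefore also carries the spread of the cytoplasmic ones. For the members the median SD was 0.342 in cytoplasm and 0.0922 in nuclei. Leaving out a cytoplasmic array outside a comparison can thus change a nuclear call, as it did for Myl4 without TA cytoplasm 2. Gene lists used the probe with the highest mean, and the 3 probes most like each member were taken by Pearson's r among probes with values on all 18 arrays and well above background on at least 9. The members and lists were chosen with earlier results of these data known.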

Additional observations from a re-analysis of the deposited data

How the results depend on the processing

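The muscle differences of Myl2 and Myl3 kept their direction in every alternative and their calls in all but one: when the nuclear arrays of a muscle were averaged to 1 sample, 0 probes passed for soleus against EDL in nuclei and 0 for TA against EDL in nuclei, and 1 of the 5 (Myl2) for TA against EDL in cytoplasm. That setting also left 0, 0 and 0 calls in nuclei against cytoplasm of EDL, soleus and TA, since 1 sample a group leaves only the spread of the cytoplasmic arrays. With the slide as a random block (correlation 0.464) 0, 0 and 2 probes passed in these 3, and 2 for TA against EDL in cytoplasm. Significance Analysis of Microarrays called 0 in EDL, 1 in soleus (Mylk2) and 0 in TA, scaling by the 75th percentile 1 in soleus and 1 in TA, and no scaling 5, 5 and 4, with 5 for soleus against EDL in cytoplasm and 5 for TA against EDL in nuclei. In soleus nuclei against cytoplasm, sign changes with a call in at least 1 of the 2 fits were those of the 1f probe of Myl1 (-0.18 by the 75th percentile) and, without scaling, its 3f probe (1.16) and Mylpf (0.93). Sign changes with no call in either fit included those of Myl2 (-0.82) and Myl3 (-0.48) by the 75th percentile and of Myl4 (0.49) without scaling. Over all comparisons, 19 sign changes with no call arose with 1 array left out and 29 in the other settings. Without scaling the median of all probes moved to values between -0.69 and 0.47 in the comparisons of muscles. The causes of these shifts were not tested.

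With 1 array left out, the probes called ranged from 1 to 3 in EDL, 0 to 2 in soleus and 2 to 3 in TA for nuclei against cytoplasm. For soleus against EDL they ranged from 3 to 5 in nuclei and 2 to 4 in cytoplasm, for TA against EDL from 2 to 6 in both, and for TA against soleus from 2 to 4 in nuclei and 2 to 3 in cytoplasm. The soleus calls fell to 0 without soleus cytoplasm 3 or soleus nuclei 1 and to 1 without soleus cytoplasm 1 or soleus nuclei 3, and the EDL calls to 1 without EDL cytoplasm 3, EDL nuclei 1 or EDL nuclei 3. Without TA cytoplasm 2, TA against EDL in nuclei rose to 6, and without TA cytoplasm 1 soleus against EDL in nuclei rose to 5. The fraction difference by muscle stayed at 0 throughout.

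The replicate block, which pairs samples by their number, called 2, 2, 2, 3, 3, 3, 5, 3 and 2 probes in the 9 comparisons and 0 in the fraction difference by muscle, and changed no call. The number stands for the same mice in EDL and soleus, but not for TA, where mice are shared across numbers and TA nuclei 3 and TA cytoplasm 3 share none, so for TA this block does not represent the animals. The authors' value table was not run for these probes.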
